A study of Mus musculus with 24 samples.

Results

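Satellite cells sorted from regenerating mouse muscle were compared between Chd4dPax7ER mice, called mutants here, and Chd4fl/fl mice, called controls, with 4 RNA-seq samples of each genotype. The genes described are the 13344 of 46078 listed genes that reached 0.5 RPKM (reads scaled to gene length and to sequencing depth) in at least 4 of these 8 samples, and each was tested without pairing. A further 23311 genes were listed at 0 in all 8. All mice were C57BL/6, aged 2 to 4 months, and their muscle had been injured 3 days earlier with cardiotoxin, a snake venom toxin that kills muscle fibres. The cells of both groups were sorted as SCA1-, CD45-, α7-integrin+ and CD34+. The control name states that both Chd4 alleles carry loxP sites. The mutant name adds Pax7, the transcription factor that marks satellite cells, and ER. The labels do not state the Cre line, the inducing agent or its timing, or whether the controls had a Cre allele or received that agent. The series holds 24 samples in all. Its other 8 RNA-seq samples, from cultured myoblasts, serve below as a comparison, and the remaining 8, from ATAC-seq, were not analysed here. Samples are numbered 1 to 4 in each group without saying that each came from its own mouse or from a pool, so p-values measure the spread between these samples only.

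Satellite cells are the stem cells of skeletal muscle and lie quiescent under the basal lamina of the fibre. After injury they express Myod1, divide as myoblasts, and then either leave the cell cycle, switch on Myog and the contractile genes and fuse into new fibres, or return to quiescence. CHD4 is the ATPase of NuRD, a complex that joins nucleosome remodelling to histone deacetylation and is best known for keeping genes of other lineages at low activity.

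Library totals lay between 286802 and 306114 summed RPKM, and mitochondrial genes held 9.17 to 12.5% of them. Reads per library cannot be read from these values, so no counting interval is given. The first principal component held 45.4% of the variance and separated the genotypes, with mutant scores from -48.3 (replicate 2) to -24.9 and control scores from 30.3 to 42.3 (replicate 1). Values below are RPKM in replicates 1 to 4 of each group, in that order, unless stated otherwise. Fold changes are mutant minus control means of log2(RPKM + 0.5), which understates the change of low genes, and each adjusted p is limma's after Benjamini-Hochberg adjustment over the 13344 genes. A gene is said to have risen or fallen only at an adjusted p under 0.05.

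Chd4 (ENSMUSG00000063870) was reduced in every mutant sample, with 64.1, 50.4, 63.8 and 48.7 RPKM in the mutants against 135, 126, 119 and 126 in the controls. No mutant value reached the lowest control value, and the exact two-sided permutation p over the 70 arrangements was 0.0286, the smallest that 4 against 4 samples can give (log2 fold change -1.16, SE 0.10, limma adjusted p = 0.000152). Chd4 transcript was thus lowered but present in the sorted cells, at 56.7 ± 8.37 RPKM against 126 ± 6.77 (mean ± SD, n = 4 each). Of the 15 NuRD subunit genes tested, 4 rose and 4 fell, against 14.7% and 11.9% of all genes tested. Chd5, a related ATPase best known from neurons and testis, had 4.98, 5.59, 7.67 and 8.42 RPKM in the mutants against 0.15, 0.17, 0.33 and 0.06 in the controls, and so went from values near 0 in each control to at least 4.98 in each mutant (log2 fold change 3.39, SE 0.21, adjusted p = 2.8e-05). Chd3, the third ATPase of this family, measured 55.1, 65.6, 62.6 and 63.6 RPKM in the mutants against 27.9, 32.0, 34.3 and 33.0 in the controls (log2 fold change 0.95, SE 0.08, adjusted p = 0.00016). The mutant values of Chd3 were about level with those of Chd4 in the same samples on this per-length scale. Mta1, a subunit that bridges the deacetylases, fell, with 31.5, 22.2, 23.9 and 26.7 RPKM in the mutants against 39.0, 39.5, 37.3 and 38.5 in the controls (log2 fold change -0.57, SE 0.10, adjusted p = 0.00425), and its groups did not overlap. The other NuRD calls depended on single samples or on the variance model. The number that rose was 2 without mutant replicate 4. The number that fell was 2 without mutant replicate 2, control replicate 1 or control replicate 2, and also with limma's variance trend left out. Mbd3 (0.00, adjusted p = 0.985), Mta2 (0.01, 0.927) and Hdac2 (-0.07, 0.596) did not pass.

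Across the transcriptome 1960 genes rose (14.7%) and 1588 fell (11.9%), 26.6% in either direction. The list counts below are to be read against these shares. Changes of at least 2-fold were more often rises, with 748 genes (5.61%) against 184 (1.38%). Without control replicate 2 the number that fell was 1034. Rises made up 55.2% of all calls on the deposited scale, 46.2% when all libraries were rescaled to one total (TPM) and 47.3% after quantile normalization, so which direction held more genes depended on the scaling. The 2 groups did not overlap at 4049 genes (30.3%).

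The share of genes that rose at least 2-fold was counted by control level. Of 576 tested genes with a control mean under 0.5 RPKM, 220 rose at least 2-fold (38.2%). That share was 7.79% from 0.5 to 2 RPKM, 4.80% from 2 to 10, 1.58% from 10 to 50 and 1.40% above 50 RPKM. The lowest class reached the test through its mutant values, so its share cannot be read against the others: 168 genes passed the expression filter with no control sample at 0.5 RPKM, and 36 with no mutant sample at that level. Falls of at least 2-fold were most frequent at control means of 2 to 10 RPKM, with 114 of 4767 genes (2.39%). On the scale of log2(RPKM + 0.5) a gene with a control mean under 0.5 RPKM cannot fall 2-fold. Falls from means of 0.5 to 2 RPKM are understated too, so the shares of falls in these low classes cannot be read against the others. By gene type the rises of at least 2-fold included 689 of 11358 protein-coding genes and 18 of 232 long noncoding RNA genes, and the falls included 8 of 106 small nucleolar RNA genes.

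**Figure D1:**
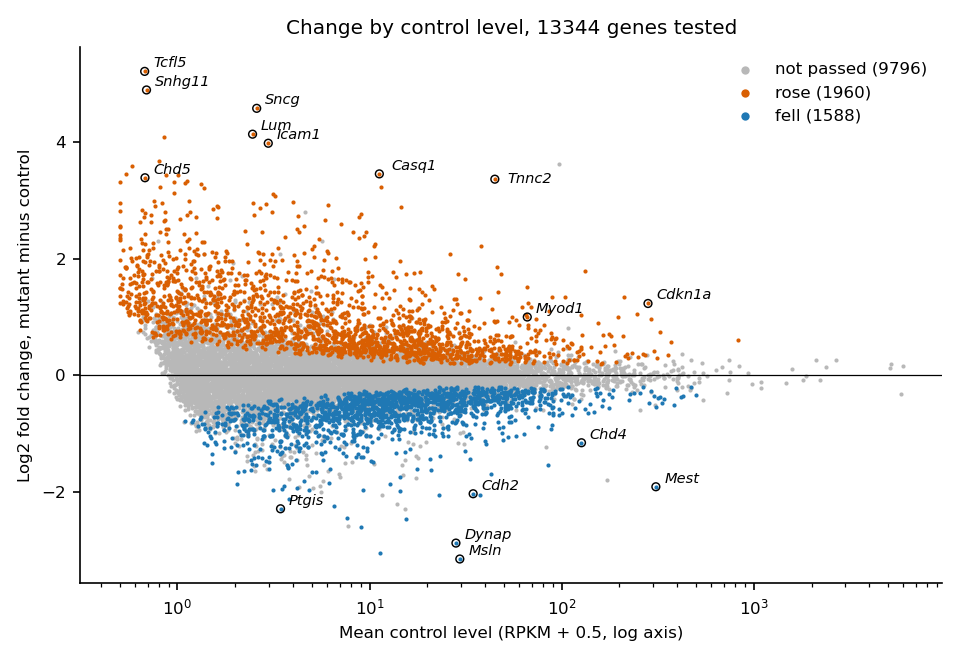
Log2 fold change (mutant minus control, log2(RPKM + 0.5)) of the 13344 genes tested against their mean control level (RPKM + 0.5, log axis). Orange and blue points are genes that rose or fell at an adjusted p under 0.05, and grey points are the rest. Among the named points Tcfl5 lies at a control mean near 0 and Tnnc2 at a high one.

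The genes with the largest rises came from unrelated tissues. Tcfl5, a basic helix-loop-helix factor best known from male germ cells, had 18.3, 22.8, 25.6 and 30.9 RPKM in the mutants against 0.40, 0, 0.11 and 0.19 in the controls (log2 fold change 5.21, SE 0.22, adjusted p = 6.95e-06). Snhg11, a long noncoding RNA gene known from neurons, had 16.3, 22.3, 20.1 and 21.3 RPKM in the mutants against 0.22, 0.13, 0.31 and 0.10 in the controls (log2 fold change 4.89, SE 0.16, adjusted p = 1.16e-06). Sncg, which encodes the neuronal protein gamma-synuclein, had 59.8, 69.7, 48.4 and 57.6 RPKM in the mutants against 0.93, 2.23, 2.94 and 2.24 in the controls (log2 fold change 4.58, SE 0.25, adjusted p = 1.29e-05). Each of the 3 was at least 16.3 in all 4 mutants and at most 2.94 in the controls. Icam1, the endothelial and leukocyte adhesion molecule, had 35.2, 52.8, 39.0 and 46.2 RPKM in the mutants against 1.37, 2.37, 1.58 and 4.56 in the controls (log2 fold change 3.98, SE 0.29, adjusted p = 6.44e-05). The muscle genes Tnnc2 (fast troponin C) and Casq1 (calsequestrin, the calcium store protein of the sarcoplasmic reticulum) rose from a higher start, Tnnc2 with 382, 610.0, 358 and 432 RPKM in the mutants against 23.1, 49.4, 44.4 and 60.7 in the controls. Casq1 measured 94.2, 227, 92.6 and 106 RPKM in the mutants against 7.44, 11.1, 11.2 and 13.2 in the controls, with mutant replicate 2 above the others.

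The promoters of these 6 genes, 250 bases ending at the annotated start in the RefSeq promoter table (GRCm38.p6), are shown because the 6 differ in tissue of origin and in control level. They run 5′ to 3′ on the gene's strand. Capitals mark CANNTG, the E-box that basic helix-loop-helix factors such as Myod1, Myog and Tcfl5 can bind, which reads the same on both strands.
Tcfl5, chr2:180642692-180642941, minus strand: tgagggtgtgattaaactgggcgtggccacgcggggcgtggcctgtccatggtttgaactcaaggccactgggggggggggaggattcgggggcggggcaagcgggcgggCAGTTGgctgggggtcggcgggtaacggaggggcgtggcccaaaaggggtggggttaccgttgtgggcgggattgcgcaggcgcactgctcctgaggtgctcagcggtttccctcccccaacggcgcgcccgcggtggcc
Snhg11, chr2:158375463-158375712, plus strand: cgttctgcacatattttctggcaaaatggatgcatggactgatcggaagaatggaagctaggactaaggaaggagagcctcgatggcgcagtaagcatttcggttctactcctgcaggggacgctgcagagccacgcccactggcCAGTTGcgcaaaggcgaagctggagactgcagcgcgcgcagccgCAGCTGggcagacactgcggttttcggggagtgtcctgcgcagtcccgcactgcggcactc
Sncg, chr14:34374670-34374919, minus strand: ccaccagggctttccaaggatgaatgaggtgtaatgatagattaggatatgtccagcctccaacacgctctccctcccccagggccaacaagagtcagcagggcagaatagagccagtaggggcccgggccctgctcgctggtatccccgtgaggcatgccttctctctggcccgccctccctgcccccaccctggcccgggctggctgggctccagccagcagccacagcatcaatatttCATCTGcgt
Icam1, chr9:21015690-21015939, plus strand: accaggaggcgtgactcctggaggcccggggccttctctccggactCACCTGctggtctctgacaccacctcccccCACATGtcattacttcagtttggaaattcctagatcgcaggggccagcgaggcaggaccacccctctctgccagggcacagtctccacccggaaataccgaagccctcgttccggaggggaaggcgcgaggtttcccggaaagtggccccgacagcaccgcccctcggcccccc
Tnnc2, chr2:164779735-164779984, minus strand: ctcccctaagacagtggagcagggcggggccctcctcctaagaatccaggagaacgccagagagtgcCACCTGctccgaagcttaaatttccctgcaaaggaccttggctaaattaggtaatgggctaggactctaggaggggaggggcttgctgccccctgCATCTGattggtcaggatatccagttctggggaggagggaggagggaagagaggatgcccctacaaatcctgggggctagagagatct
Casq1, chr1:172219896-172220145, minus strand: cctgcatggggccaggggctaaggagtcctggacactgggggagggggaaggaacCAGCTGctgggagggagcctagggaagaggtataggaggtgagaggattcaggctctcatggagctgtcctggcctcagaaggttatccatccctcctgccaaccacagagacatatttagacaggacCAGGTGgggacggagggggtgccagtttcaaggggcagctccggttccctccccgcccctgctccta
Tcfl5 and Sncg hold 1 such match each in these windows and the other 4 hold 2. CANNTG occurs in 66.0% of the 27025 promoters of the table over the same 250 bases, and at least 2 matches in 31.7%. The windows also differ in CG dinucleotides, with 22 in Tcfl5, 18 in Snhg11, 15 in Icam1, 7 in Sncg and 3 each in Tnnc2 and Casq1, where the median of the table is 6 and its quartiles are 2 and 16. A match is a string of letters and not a binding site.

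Satellite cell identity was measured next, as a check of the label and as a result. The sort markers Itga7 and Cd34 and the lineage genes Pax7, Myf5, Myod1 and Cdh15 were all present in all 8 samples. The planned check also held Vcam1, given further below, and Calcr, which passed the expression filter but is not reported here. Pax7 measured 12.9, 11, 14.4 and 7.62 RPKM in the mutants against 14.2, 18.2, 29.0 and 23.7 in the controls (log2 fold change -0.85, SE 0.24, adjusted p = 0.0301). The groups overlapped, and the adjusted p was between 0.0565 and 0.0733 without mutant replicate 2 or 4, without control replicate 3 or 4, or with no expression filter. Myf5, the other early myogenic factor, had 21.4, 20.8, 30.9 and 20.4 RPKM in the mutants against 29.5, 28.6, 26.8 and 33.0 in the controls and did not pass (adjusted p = 0.0885), although it did so without mutant replicate 3 (adjusted p = 0.00642). Cd34 stayed between 5.17 and 8.05 in all 8 samples (0.05, adjusted p = 0.86), and Itga7 rose slightly (log2 fold change 0.36, SE 0.08, adjusted p = 0.00804).

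Of 25 identity genes tested, 8 rose (32%) and 4 fell (16%), against 14.7% and 11.9% of all genes tested. Their median log2 fold change was 0.22, against -0.02 over all genes tested. The number that rose was 5 without control replicate 1 or 2, and the number that fell was 2 without mutant replicate 2 or 4 or control replicate 3 or 4. The members that moved in both directions include receptors of the stem cell niche. Fgfr4, a fibroblast growth factor receptor of satellite cells, had 32.6, 22.5, 22.9 and 21.9 RPKM in the mutants against 45.0, 54.8, 58.0 and 51.4 in the controls (log2 fold change -1.07, SE 0.13, adjusted p = 0.000812). Met, the receptor for hepatocyte growth factor that is used in activation, had 44.8, 28.1, 44.8 and 44.8 RPKM in the mutants against 80.5, 70.0, 76.3 and 71.4 in the controls (log2 fold change -0.89, SE 0.15, adjusted p = 0.00273). In both genes the highest mutant sample was below the lowest control. Sdc3, a heparan sulphate proteoglycan of satellite cells, was higher in all mutants, with 17.1, 20.3, 22.2 and 19.6 RPKM in the mutants against 7.80, 7.74, 6.88 and 7.67 in the controls (log2 fold change 1.33, SE 0.10, adjusted p = 6.71e-05). Ncam1 and Megf10, surface proteins of myoblasts, also rose (0.91, SE 0.15 and 0.83, SE 0.19).

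Among the adhesion genes that tie satellite cells to the fibre, 4 of 10 tested cadherin and catenin genes fell, 1 rose and 5 did not pass. Cdh2 (N-cadherin) had 12.9, 8.92, 4.69 and 7.25 RPKM in the mutants against 35.3, 35.6, 34.0 and 31.6 in the controls (log2 fold change -2.03, SE 0.24, adjusted p = 0.000571). Ctnna1 (α-catenin), which links cadherins to actin, had 131, 117, 110.2 and 118 RPKM in the mutants against 169.8, 181, 176 and 179 in the controls (log2 fold change -0.57, SE 0.06, adjusted p = 0.000486), and Ctnnd1 and Jup fell by less than 2-fold (-0.46 and -0.69). Cdh15 (M-cadherin) had 102, 96.0, 86.6 and 101 RPKM in the mutants against 50.2, 72.1, 93.3 and 82.5 in the controls, with overlapping groups, and passed only without control replicate 3 (adjusted p = 0.0476 against 0.105 with all samples). Ctnna2, a neuronal α-catenin near 0 in the controls, rose (log2 fold change 1.72, SE 0.23, adjusted p = 0.00108). Of all genes tested 14.7% rose and 11.9% fell. In the Notch pathway, which holds satellite cells in the undifferentiated state, 4 of 17 genes rose (23.5%) and 2 fell (11.8%), or 1 when single samples were left out. The ligands Jag2 (log2 fold change 1.23, SE 0.18, adjusted p = 0.00145) and Dll1 (log2 fold change 0.69, SE 0.18, adjusted p = 0.0189) were among those that rose, the target Hey1 fell (log2 fold change -0.49, SE 0.12, adjusted p = 0.0159), and the receptor Notch2 (0.09, adjusted p = 0.361) and the target Heyl (0.24, 0.504) did not pass.

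Genes of muscle differentiation formed the broadest group that was higher in the mutants. Of 20 tested myogenic regulators and fusion genes 12 rose and 1 fell, and of 38 tested sarcomere genes 28 rose and 1 fell (median log2 fold changes 0.63 and 1.35). Myod1 had 131, 162, 115 and 119.7 RPKM in the mutants against 79.0, 68.2, 54.2 and 61.6 in the controls (log2 fold change 1.00, SE 0.14, adjusted p = 0.0011). Myog, which commits myoblasts to differentiation, had 531, 821, 433 and 501 RPKM in the mutants against 196, 332, 301 and 338 in the controls (log2 fold change 0.96, SE 0.22, adjusted p = 0.013), with mutant replicate 2 highest and control replicate 1 lowest. Mymk, the fusion protein myomaker, rose as well (157, 318, 154 and 147 RPKM in the mutants against 42.8, 75.4, 67.9 and 74.8 in the controls, log2 fold change 1.52), while its partner Mymx did not pass (0.48, adjusted p = 0.322).

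Both fast and slow contractile genes were raised. Tnnt1 and Tnni1, the slow troponins T and I, measured 174 ± 49.4 RPKM against 37.8 ± 12.5 and 48.7 ± 21.1 RPKM against 10.1 ± 3.69 (mutant against control, mean ± SD). Myh8, the perinatal myosin heavy chain, had 17.0, 27.2, 6.02 and 4.95 RPKM in the mutants against 0.40, 1.46, 1.22 and 1.40 in the controls (log2 fold change 2.89, SE 0.51, adjusted p = 0.0038), and Myh1, an adult fast myosin, had 42.2, 96.3, 36.4 and 21.7 RPKM in the mutants against 7.11, 10.2, 10.9 and 12.7 in the controls (log2 fold change 2.03, SE 0.38, adjusted p = 0.00505). The myosin genes are close copies, and how shared reads were counted was not stated. By contrast the embryonic forms Myh3 (0.82, adjusted p = 0.115) and Actc1 (0.22, 0.656), both already above 59 RPKM in all controls, did not pass. Actn2, an actinin of the Z-disc, rose (log2 fold change 2.03, SE 0.37, adjusted p = 0.00439).

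The machinery of excitation and calcium release was raised too, with 13 of 20 triad genes higher and 1 lower. Hrc (2.34, SE 0.38) and Stac3 (1.77, SE 0.16), proteins of the calcium store and of the triad, rose alongside Casq1. Of 14 voltage-gated sodium and calcium channel genes tested, 8 rose, although only 5 did without control replicate 2. Among them Scn4a, the channel of the muscle action potential, had 2.42, 5.11, 3.16 and 2.00 RPKM in the mutants against 0.36, 0.52, 0.62 and 0.48 in the controls (log2 fold change 1.82, SE 0.26, adjusted p = 0.00132). At the nerve-muscle synapse 7 of 11 genes rose and 2 fell. Ache, acetylcholinesterase, had 3.5, 10.2, 4.18 and 5.81 RPKM in the mutants against 0.17, 0.31, 0.22 and 0.32 in the controls (log2 fold change 2.99, SE 0.29, adjusted p = 0.000235), and Colq, its collagen anchor, followed (2.65, SE 0.27). Lrp4, the agrin receptor, fell in the same cells, with 3.29, 1.56, 1.69 and 1.24 RPKM in the mutants against 8.02, 10.6, 7.86 and 8.34 in the controls (log2 fold change -1.97, SE 0.23, adjusted p = 0.000571), while its ligand gene Agrn (1.10, SE 0.15) and the receptor-clustering gene Rapsn (1.10, SE 0.12) rose.

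Energy genes of the adult fibre were higher in 12 of 14 cases and lower in none (median 1.76). Cox8b, a cytochrome oxidase subunit of heart and muscle, was listed at 0 in all 4 controls and had 6.20, 11.1, 2.56 and 2.05 in the mutants. Mb (myoglobin) had 24.2, 27.1, 5.31 and 4.62 RPKM in the mutants against 0.13, 1.14, 1.20 and 1.05 in the controls (log2 fold change 3.21, SE 0.60, adjusted p = 0.00492), so that its mutants split into replicates 1 and 2 at over 24 and replicates 3 and 4 at under 6. Pgam2 and Pygm, the muscle forms of phosphoglycerate mutase and glycogen phosphorylase, rose with non-overlapping groups (2.67, SE 0.39 and 2.25, SE 0.25). Eno3, the most abundant member, did not pass (0.34, adjusted p = 0.0521, but 0.0275 without mutant replicate 3). Genes of mature fibres used as markers summed to between 791 and 1557 in the mutants and between 428 and 509.7 in the controls. In these bulk samples more cells of a type and more RNA per cell cannot be told apart.

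**Figure D2:**
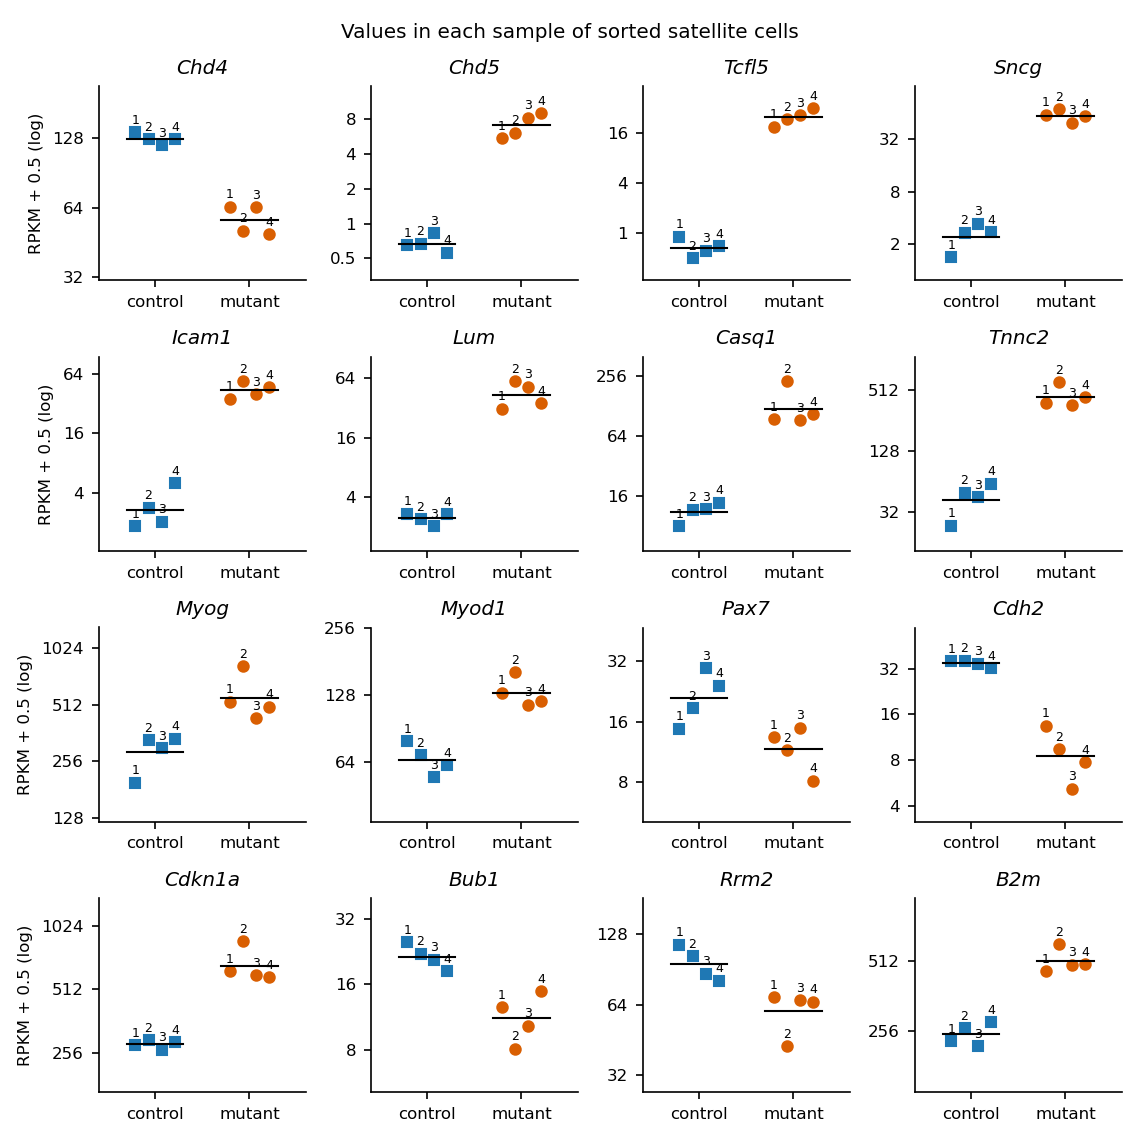
RPKM + 0.5 (log axis) of 16 genes in each sample, mutants as orange circles and controls as blue squares, with a bar at the mean of the log values. The digit beside a point is its replicate, and mutant replicate 2 is the highest mutant for Casq1, Tnnc2 and Myog and the lowest for Bub1 and Rrm2.

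Genes of cell division were lower, by modest amounts and with less certainty for each gene. Of 50 mitosis genes tested, 20 fell and none rose (median log2 fold change -0.56), and 35 were lower at an unadjusted p under 0.05. Of 40 DNA replication genes 7 fell (17.5%, against 11.9% of all genes tested) and none rose (median -0.37), with 19 lower at an unadjusted p under 0.05. Bub1, a kinase of the spindle checkpoint, had 12.1, 7.58, 9.83 and 14.4 RPKM in the mutants against 24.6, 21.6, 20.3 and 17.9 in the controls (log2 fold change -0.94, SE 0.18, adjusted p = 0.00565). Rrm2, the small subunit of ribonucleotide reductase, had 68.2, 42.1, 66.4 and 65.4 RPKM in the mutants against 115, 103, 86.3 and 80.5 in the controls (log2 fold change -0.67, SE 0.17, adjusted p = 0.0179). Groups did not overlap for either, but control replicate 1 was highest and mutant replicate 2 lowest in both. Pcna (-0.33, adjusted p = 0.222) and Mcm6 (-0.29, 0.251) did not pass. The count of lower mitosis genes was 4 without control replicate 1, 6 without control replicate 2, 10 without mutant replicate 3, 12 without control replicate 3 or 4 and 13 without mutant replicate 2. The replication count was 2 without control replicate 1 or 2, 3 without control replicate 4, 4 without mutant replicate 2 or 3 and 11 with TPM scaling.

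Of 18 CDK inhibitor and G1 cyclin genes 4 rose (22.2%), 5 fell (27.8%) and 9 did not pass (median 0.01). The shares of all genes tested were 14.7% and 11.9%. In this list 3 fell without mutant replicate 1 or 2 or control replicate 1 or 2. Cdkn1a, the cyclin-dependent kinase inhibitor p21, had 626, 868, 596 and 586 RPKM in the mutants against 278, 294, 265 and 288 in the controls (log2 fold change 1.23, SE 0.12, adjusted p = 0.000255). Ccnd1, the G1 cyclin D1, was also higher, with 52.0, 41.8, 58.3 and 56.2 RPKM in the mutants against 29.9, 25.2, 17.4 and 19.8 in the controls (log2 fold change 1.18, SE 0.17, adjusted p = 0.00155), while its kinase partner Cdk6 was lower, with 10.7, 8.18, 10.2 and 11.5 RPKM in the mutants against 24.5, 19.6, 17.6 and 21.5 in the controls (log2 fold change -1.0, SE 0.13, adjusted p = 0.000916). Rbl1, the pocket protein p107, fell (log2 fold change -1.04, SE 0.21, adjusted p = 0.0063). Of 27 genes known as p53 targets 12 rose and 1 fell (median 0.46). Trp53inp1 had 41.6, 53, 42.9 and 39.2 RPKM in the mutants against 14, 11.6, 14.3 and 13.2 in the controls (log2 fold change 1.69, SE 0.11, adjusted p = 2.83e-05), and Ccng1 had 115, 157, 122 and 112 RPKM in the mutants against 43.2, 46.3, 52.5 and 43.2 in the controls (log2 fold change 1.43, SE 0.11, adjusted p = 9.74e-05). Phlda3, an inhibitor of Akt, rose too (1.22, SE 0.13), whereas Trp53 itself did not pass (-0.03, adjusted p = 0.823) and stayed between 35.1 and 45.8 in all samples.

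In each genotype a single sample stood at opposite ends of the muscle and division groups. Among the mutants, replicate 2 was the highest sample for 36 of 38 sarcomere genes and the lowest for 48 of 50 mitosis and 38 of 40 replication genes. Among the controls, replicate 1 was the lowest for 35 of 38 sarcomere genes and the highest for 47 of 50 mitosis and 36 of 40 replication genes. The sarcomere median relative to the control mean was 1.22, 2.24, 0.85 and 0.94 log2 units in mutants 1 to 4, and the mitosis median was -0.37, -1.14, -0.57 and -0.22. Mutants 1, 3 and 4 did not run in opposite order in these medians, since replicate 3 was the lowest of them in both. Without mutant replicate 2 the median fold changes were 1.01 for sarcomere and -0.38 for mitosis genes, and without control replicate 1 they were 1.11 and -0.46. Mutant replicate 2 was also the highest mutant for 18 of 20 triad genes, 13 of 14 energy genes of the adult fibre, 9 of 12 fibro-adipogenic markers and 7 of 8 Schwann cell markers. It was the highest for 6 of 16 neuronal and 9 of 19 MHC class I presentation genes. Medians of the neuronal genes tested were 1.17, 1.49, 1.29 and 1.45 in the 4 mutants, and those of MHC class I presentation genes were 0.45, 0.57, 0.73 and 0.45. Of the 16 neuronal genes, 7 had no control sample at 0.5 RPKM and reached the test through their mutant values. Their list medians therefore cannot be set against those of the other lists.

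**Figure D3:**
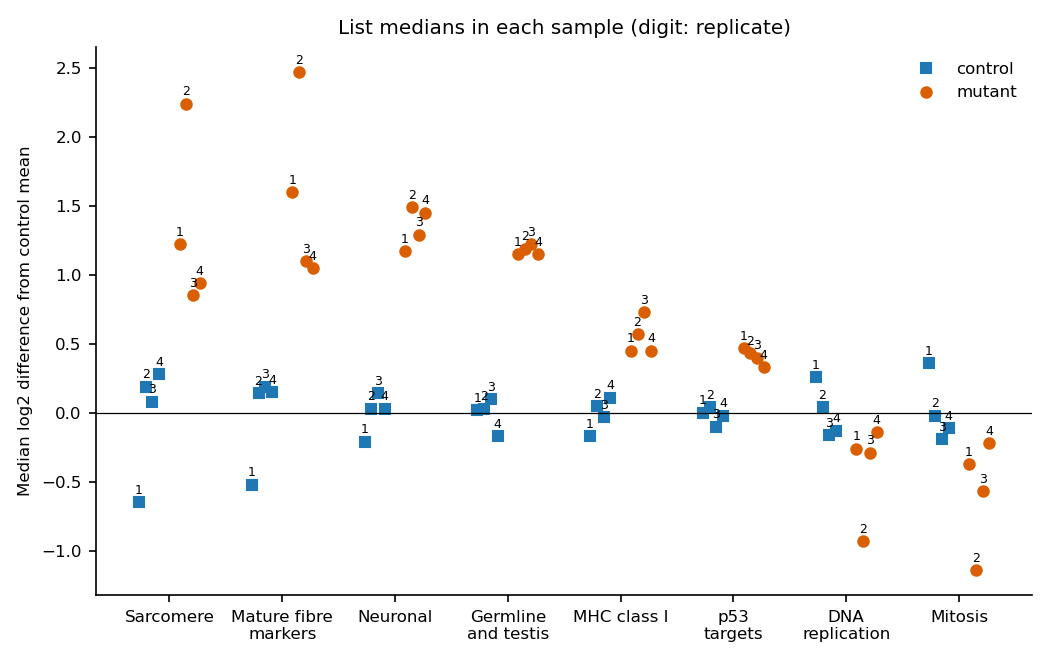
Median log2 difference from the control mean over the tested members of 8 gene lists, for each of the 4 mutants (orange circles) and 4 controls (blue squares), with the replicate number beside each point. Sarcomere and mature fibre genes spread most among the mutants, with replicate 2 at 2.24 and 2.47, while the germline and p53 target lists stay close together. Of the genes tested, 7 of 16 neuronal and 3 of 8 germline genes had no control sample at 0.5 RPKM. The medians of these 2 lists cannot be set against the others.

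Genes of neurons were measured because NuRD is best known for restraining other lineages. Of 40 such genes listed, 16 passed the expression filter, 7 of them without any control sample at 0.5 RPKM, so no test over the list is offered. Of the 16, 11 rose and none fell. Camkv, a kinase-like protein of synapses, had 9.59, 7.0, 10.4 and 12.7 RPKM in the mutants against 0.17, 0.25, 0.35 and 0.43 in the controls (log2 fold change 3.68, SE 0.20, adjusted p = 1.33e-05), and Uchl1, an abundant neuronal deubiquitinase, had 19.8, 29.2, 23.4 and 30.0 RPKM in the mutants against 2.22, 3.10, 4.19 and 1.44 in the controls (log2 fold change 3.07, SE 0.26, adjusted p = 0.000118). The intermediate filament genes Ina (1.72, SE 0.24) and Nefm (1.6, SE 0.28) and the tubulin gene Tubb4a (2.07, SE 0.30) rose from controls at or below 0.45 to mutants of 1.09 to 4.02. Map1b, already near 100 in the controls, did not pass (0.07, adjusted p = 0.561). Snhg11, Sncg and Camkv thus reached levels in the mutants that the neurofilament genes did not.

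Of 60 germline and testis genes listed only 8 passed the filter, 3 of them without a control sample at 0.5 RPKM, and 25 were listed at 0 in every sample. The 5 that rose were Tcfl5, the homeobox gene Esx1, the sperm channel subunit Catsperz, the meiotic cohesin Rec8 and the piRNA factor Piwil2 (adjusted p = 0.0526 for the last without mutant replicate 4). Esx1 had 5.58, 6.44, 6.38 and 7.25 RPKM in the mutants against 0, 0.16, 0 and 0.15 in the controls (log2 fold change 3.59, SE 0.18, adjusted p = 1.02e-05), and Catsperz had 6.90, 9.52, 9.69 and 8.55 RPKM in the mutants against 0, 1.62, 0.43 and 0 in the controls (log2 fold change 3.44, SE 0.42, adjusted p = 0.000699). Rec8 reached only 0.76 to 1.52 in the mutants (log2 fold change 1.30, SE 0.26, adjusted p = 0.00615). Brdt, Syce2 and Catsper2 did not pass (log2 fold changes 0.17, -0.15 and -0.05). Gm364 on the X chromosome (5.62, 4.55, 4.16 and 7.57 RPKM in the mutants against 0, 0, 0.15 and 0 in the controls) and the pluripotency-associated noncoding RNA Platr3 (27.2, 28.2, 16.9 and 29.9 RPKM in the mutants against 1.53, 1.54, 3.64 and 3.92 in the controls) showed the same form of change, with no overlap between groups.

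Markers of other cells that could enter the sort were examined in the same samples. None of 10 neutrophil markers passed the filter and 5 were listed at 0 throughout. Ptprc, the gene of CD45, stayed at or below 0.59 in the mutants and 0.48 in the controls, and the endothelial genes Pecam1 and Cdh5 stayed at or below 0.94 in all samples. The endothelial gene Egfl7, also short of the filter and so not tested, was higher in every mutant. It had 1.38, 0.87, 0.43 and 0.91 RPKM in the mutants against 0.18, 0.22, 0.33 and 0.08 in the controls. The 12 endothelial markers summed to 9.95 to 15.5 in the mutants against 4.51 to 8.47 in the controls, without overlap, and 1 of the 3 tested rose. That gene was Cldn5, a tight junction claudin, with 3.92, 6.31, 3.28 and 2.83 RPKM in the mutants against 1.12, 0.22, 1.06 and 0.41 in the controls (log2 fold change 1.96, SE 0.32, adjusted p = 0.00273), while Tek did not pass (0.51, adjusted p = 0.21). Of 14 macrophage and leukocyte markers 1 rose (Laptm5, 4.66, 8.32, 5.55 and 5.52 RPKM in the mutants against 2.33, 2.38, 2.42 and 3.76 in the controls), and their sum was 116 to 235 in the mutants against 94.7 to 172 in the controls. Markers of fibro-adipogenic progenitors summed to 231 to 387 against 72.2 to 102, with 5 of 12 higher and 1 lower. Most of that sum was Dcn, Lum, Gsn and Dpt, while the defining receptor Pdgfra was at 0.89 to 1.82 against 0.82 to 1.10 and did not pass (0.40, adjusted p = 0.18). The 7 tenocyte markers summed to 12.68, 40.75, 12.38 and 11.3 in the mutants against 9.36, 10, 11.59 and 9.67 in the controls. Mutant replicate 2 thus stood far above the rest, although none of the 3 tested members passed. Tnmd, short of the filter, had 3.08 RPKM in that sample and at most 0.44 elsewhere. Of 6 pericyte markers tested 4 rose, Rgs5, Cspg4, Abcc9 and Mcam, each by at least 2-fold. The sum of all 8 listed was 70.5 to 122 in the mutants against 26.3 to 37.5 in the controls. Mcam, an adhesion molecule that pericytes share with other cells, made up most of it, with 44.8, 69.4, 66.0 and 50.5 RPKM in the mutants against 9.33, 7.22, 10.1 and 6.66 in the controls (log2 fold change 2.72, SE 0.17, adjusted p = 2.83e-05), whereas Pdgfrb (0.84, adjusted p = 0.0813, or 0.0456 without mutant replicate 1) and Notch3 (0.04, 0.89) did not pass.

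Schwann cell markers summed to 56.2 to 115 against 49.3 to 58.0, with 4 of 8 higher. Sox10, the glial transcription factor, had 3.31, 4.33, 2.16 and 2.73 RPKM in the mutants against 0.23, 0, 0.31 and 0.16 in the controls (log2 fold change 2.42, SE 0.24, adjusted p = 0.000271), and Mbp, the myelin basic protein gene, had 6.16, 8.53, 6.97 and 6.92 RPKM in the mutants against 0.47, 0.28, 1.39 and 0.51 in the controls (log2 fold change 2.79, SE 0.26, adjusted p = 0.000198). Erbb3 (adjusted p = 0.0585) did not pass, and Foxd3 stayed at or below 0.58. Hba-a1, a globin of red cells, was listed at 0 in the controls and at 0.55, 4.03, 0.76 and 0.73 in the mutants, while Alas2 and Hbb-bt were listed at 0 in all samples. The part of such cells in the endothelial, fibro-adipogenic, tenocyte, pericyte and Schwann cell results was not tested.

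Some matrix genes were higher, and most did not pass. Of 32 collagen and basement membrane genes 8 rose and none fell (median 0.15), although 4 fell without control replicate 1. Of 32 matrix proteases and inhibitors 12 rose and 3 fell (median 0.29), with 5 falling without control replicate 1 and 1 without mutant replicate 4 or control replicate 2, 3 or 4. The small leucine-rich proteoglycans Lum and Dcn, which bind collagen fibrils, had the largest changes. Lum measured 30.7, 58.5, 51.5 and 35.0 RPKM in the mutants against 2.21, 1.91, 1.53 and 2.19 in the controls (log2 fold change 4.14, SE 0.21, adjusted p = 1.02e-05) and Dcn measured 97.1, 154, 110.3 and 76.4 RPKM in the mutants against 9.16, 10.1, 11.1 and 13.4 in the controls (log2 fold change 3.23, SE 0.20, adjusted p = 2.67e-05), and Bgn, of the same family, also rose (1.30, SE 0.19). Among proteases, Mmp2 had 40.3, 54.7, 58.8 and 38.6 RPKM in the mutants against 7.85, 7.39, 13.2 and 7.10 in the controls (log2 fold change 2.39, SE 0.21, adjusted p = 0.000141), and the protease inhibitor Serpine2 went with it (2.37, SE 0.21). Col1a1 rose (log2 fold change 1.6, SE 0.29, adjusted p = 0.00406) but its partner chain Col1a2 (0.34, adjusted p = 0.278) and Col3a1 (0.22, 0.369) did not pass. Tnc, a matrix protein of regenerating tissue, had 83.6, 89.2, 102 and 126 RPKM in the mutants against 43.6, 48.0, 64.4 and 54.2 in the controls (log2 fold change 0.92, SE 0.15, adjusted p = 0.0026). Dcn, Lum and Col15a1 also stand among the fibro-adipogenic markers above.

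The antigen presentation list of MHC class I had 10 of 19 genes higher, 9 that missed the threshold and none lower (median 0.53). B2m, the invariant light chain of MHC class I, had 461, 599.9, 491 and 492 RPKM in the mutants against 229.8, 263, 219 and 279 in the controls (log2 fold change 1.04, SE 0.11, adjusted p = 0.000271), and the heavy chain genes H2-D1 (0.94, SE 0.11) and H2-K1 (0.84, SE 0.15) rose as well. Reads shared between H2 genes make single members less certain. Of 34 interferon response genes 10 rose and none fell (median 0.26). Bst2, an interferon-induced restriction factor, had 41.0, 46.9, 52.0 and 53 RPKM in the mutants against 16.1, 22.4, 11.6 and 22.9 in the controls (log2 fold change 1.42, SE 0.20, adjusted p = 0.00132), and Ifi27 was higher (1.07, SE 0.15), but Irf1 (-0.04, adjusted p = 0.923), Rsad2 (-0.14, 0.691) and Gbp2 (-0.17, 0.686) did not pass. Icam1 is also a target of NF-kappaB, and of 29 such targets and chemokines tested 3 rose (10.3%, against 14.7% of all genes tested). The number that rose was 6 without control replicate 4. Nfkbia (123, 106, 115 and 98.7 RPKM in the mutants against 82.2, 114, 78.8 and 148 in the controls) and Cxcl1 (77.5, 35.0, 82.7 and 35.0 RPKM in the mutants against 41.7, 95.5, 23.8 and 164 in the controls) had overlapping groups and did not pass. Vcam1, the sister adhesion molecule of satellite cells, did not pass either (0.32, adjusted p = 0.14, but 0.0492 without control replicate 4).

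Several secreted signals changed by large amounts. Igfbp2, a binding protein of insulin-like growth factors, had 57.4, 60.9, 49.7 and 78.2 RPKM in the mutants against 7.09, 9.42, 9.57 and 7.94 in the controls (log2 fold change 2.77, SE 0.15, adjusted p = 1.29e-05). Igf2, the growth factor expressed as myoblasts differentiate, had 87.6, 179, 87.8 and 95.1 RPKM in the mutants against 15.1, 27.6, 31.2 and 29.3 in the controls (log2 fold change 2.08, SE 0.28, adjusted p = 0.00105), and the binding protein Igfbp4 rose (1.84, SE 0.17). Igfbp3 did not pass (0.04, adjusted p = 0.739) and lay between 64.9 and 78.1 in every sample. Over the FGF, IGF and HGF list 8 of 28 genes rose (28.6%) and 6 fell (21.4%), against 14.7% and 11.9% of all genes tested. Of these list calls 4 and 2 were left without control replicate 1, and 5 and 3 without control replicate 2. The number that fell was also 2 without mutant replicate 4 or control replicate 4 and 3 without mutant replicate 2 or 3.

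In the TGF-beta and BMP list 6 of 33 genes rose (18.2%) and 2 fell (6.06%), against 14.7% and 11.9% of all genes tested, and 1 fell without mutant replicate 2 or 3 or control replicate 2, 3 or 4. Ltbp2, a microfibril protein related to the latent TGF-beta binding proteins, had 9.37, 12.2, 15.2 and 12.9 RPKM in the mutants against 0.71, 0.85, 0.75 and 0.97 in the controls (log2 fold change 3.27, SE 0.16, adjusted p = 1.02e-05). Fst (follistatin), which binds activin and myostatin, had 24.0, 45.8, 24.3 and 20.4 RPKM in the mutants against 3.11, 3.11, 3.5 and 5.34 in the controls (log2 fold change 2.73, SE 0.25, adjusted p = 0.000189), and Tgfb1 rose by less than 2-fold (0.84, SE 0.12). Of 24 Wnt pathway genes 4 rose (16.7%) and 1 fell (4.17%), and 2 rose without mutant replicate 3 or control replicate 2. Wnt10b had 2.57, 4.46, 4.04 and 5.85 RPKM in the mutants against 0.34, 0.14, 0 and 0.13 in the controls (log2 fold change 2.83, SE 0.26, adjusted p = 0.000175), and Wnt7b had 3.77, 3.20, 4.90 and 5.14 RPKM in the mutants against 0.54, 0.97, 0.45 and 0.93 in the controls (log2 fold change 1.96, SE 0.22, adjusted p = 0.000388). Lgr5, a receptor for R-spondins, fell from low values (0.32, 0.19, 0.38 and 0.27 RPKM in the mutants against 1.31, 1.03, 2.06 and 1.16 in the controls, log2 fold change -1.23, SE 0.22, adjusted p = 0.00388). Of 40 axon guidance genes, a group of ligands and receptors that also act in muscle, 18 rose and 3 fell, with Ephb1 higher (log2 fold change 1.66, SE 0.26, adjusted p = 0.00207) and Nrp2 lower (4.94, 2.99, 2.40 and 2.74 RPKM in the mutants against 10.5, 9.38, 7.66 and 11.9 in the controls, log2 fold change -1.49, SE 0.21, adjusted p = 0.00135). The paralogue Nrp1 did not pass (0.12, adjusted p = 0.359).

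Metabolic genes moved in both directions. Of 31 genes of cholesterol and fatty acid synthesis 11 fell and 1 rose (median -0.30). Hmgcs1, an early enzyme of cholesterol synthesis, had 64.0, 39.5, 42.6 and 49.8 RPKM in the mutants against 86.5, 91.9, 68.5 and 108 in the controls (log2 fold change -0.86, SE 0.17, adjusted p = 0.00652), and the later enzymes Cyp51 (-0.99, SE 0.20), Msmo1 (-1.01, SE 0.20) and Idi1 (-1.03, SE 0.22) were lower too. The member that rose was Scd1, the stearoyl-CoA desaturase, with 87.3, 126, 95.3 and 80.1 RPKM in the mutants against 31.1, 26.1, 25.4 and 31.0 in the controls (log2 fold change 1.74, SE 0.14, adjusted p = 9.49e-05). Its neighbour in function Scd2 did not pass (0.19, adjusted p = 0.113). Of 21 glycolysis genes 12 rose and 1 fell, from the muscle forms Pgam2 and Pfkm (1.39, SE 0.29) to the general forms Hk1 (0.81, SE 0.10) and Pfkp (0.80, SE 0.08), while Pkm stayed between 499 and 603 in all samples. Ppargc1a, a coactivator of mitochondrial genes, had 6.75, 10.2, 9.75 and 5.51 RPKM in the mutants against 1.65, 2.28, 3.01 and 1.29 in the controls (log2 fold change 1.75, SE 0.26, adjusted p = 0.00159).

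Genes of glutathione use and of the Nrf2 response had some of the largest single changes, with 11 of 26 higher and 3 lower. Gstt3, a theta-class glutathione transferase, had 6.73, 11.2, 9.0 and 8.98 RPKM in the mutants against 0.24, 0.48, 0.32 and 0.45 in the controls (log2 fold change 3.43, SE 0.18, adjusted p = 1.29e-05), and Gstt1 and Gstt2 rose by about the same amount as each other (1.87, SE 0.15 and 1.84, SE 0.19). Akr1c13, an aldo-keto reductase, had 13.9, 13.5, 9.16 and 14.3 RPKM in the mutants against 0, 0, 0.48 and 0.94 in the controls (log2 fold change 4.08, SE 0.34, adjusted p = 0.000119). Both families hold close copies, so the split of reads between members is uncertain. Hmox1, haem oxygenase, was uneven among the mutants, with 49.5, 45.2, 177 and 278 RPKM in the mutants against 8.84, 12.7, 20.8 and 13.9 in the controls (log2 fold change 2.89, SE 0.56, adjusted p = 0.00595), since replicates 3 and 4 were several times higher than 1 and 2. The general Nrf2 targets Txnrd1 (0.28, adjusted p = 0.268) and Gclc (0.22, 0.373) did not pass. Of 32 immediate early and heat shock genes 12 rose and none fell. Small heat shock genes known from muscle were among these, with Hspb8 (1.85, SE 0.19), Hspb1 (1.54, SE 0.16) and Cryab (1.18, SE 0.21). The immediate early genes were divided. Nr4a1 rose by at least as much as Cryab, while Fos (-0.14, adjusted p = 0.626) and Fosb (-0.10, 0.759) did not pass.

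Other chromatin regulators were more often lower, with 16 of 42 lower and 2 higher (median -0.29), or 10 lower with the replicate number as a block. Tet2, a 5-methylcytosine dioxygenase, had 5.53, 7.29, 5.92 and 5.01 RPKM in the mutants against 9.77, 10.9, 12.8 and 11.3 in the controls (log2 fold change -0.87, SE 0.13, adjusted p = 0.00183), and Ino80, a remodelling ATPase, had 12.4, 12.7, 15.1 and 12.1 RPKM in the mutants against 22.9, 19, 23.3 and 17.6 in the controls (log2 fold change -0.64, SE 0.11, adjusted p = 0.00385). Ezh2, the methyltransferase of Polycomb, fell (-0.65, SE 0.16), and Smarca1, a remodelling ATPase of the ISWI family, rose (1.30, 3.04, 3.31 and 2.84 RPKM in the mutants against 0.36, 0.49, 1.04 and 0.50 in the controls, log2 fold change 1.49). Of 274 tested Zfp genes, 46 fell (16.8%) and 12 rose (4.38%), against 11.9% and 14.7% of all genes tested. The number that rose was 4 to 7 without any one of mutant replicates 2 to 4 or control replicates 2 and 3. Small nucleolar RNA genes, short transcripts, had 5 of 57 lower (8.77%, against 11.9% of all genes) and 1 higher. Snord87 (0, 5.13, 1.78 and 0 RPKM in the mutants against 14.5, 9.09, 9.58 and 10.1 in the controls, log2 fold change -3.06, SE 0.71, adjusted p = 0.0129) and Snord4a (log2 fold change -2.47, SE 0.74, adjusted p = 0.0354) fell most, although Snord4a did not pass without mutant replicate 2 or control replicate 2, 3 or 4 (adjusted p up to 0.0903). Snora31 had 18.4, 18.3, 15.4 and 17.1 RPKM in the mutants against 35.2, 38.9, 47.5 and 38.4 in the controls (log2 fold change -1.18, SE 0.10, adjusted p = 0.000137). Hoxa7 (-1.24, SE 0.20) and Hoxa9 (-0.73, SE 0.16) were lower, and Hoxc4 was higher (0.55, SE 0.13).

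Imprinted genes, which are read from the allele of a single parent, included 12 that rose and 5 that fell of 34 tested. The noncoding RNA genes Meg3 and Rian lie in the same imprinted region of chromosome 12 and rose alike, Meg3 with 11.5, 19, 21.3 and 10.4 RPKM in the mutants against 4.89, 2.53, 4.43 and 3.28 in the controls (log2 fold change 1.88, SE 0.26, adjusted p = 0.00129) and Rian with 12.3, 20.2, 20.9 and 12.2 RPKM in the mutants against 4.78, 2.81, 3.93 and 2.59 in the controls (log2 fold change 2.06, SE 0.24, adjusted p = 0.0005). In both genes mutants 2 and 3 were above mutants 1 and 4. Mest fell, with 132, 67.2, 57.1 and 79.6 RPKM in the mutants against 207, 331, 377 and 321 in the controls (log2 fold change -1.91, SE 0.26, adjusted p = 0.00118), and Peg10 did not pass (-0.57, adjusted p = 0.065, but 0.0297 without mutant replicate 3 and 0.0413 without control replicate 2). Of 11 genes of the X-linked Bex and Tceal family 7 rose and none fell. Bex2 had 9.78, 10.7, 8.38 and 12.7 RPKM in the mutants against 0.17, 1.23, 2.03 and 0.97 in the controls (log2 fold change 2.90, SE 0.35, adjusted p = 0.000669) and Bex1 had 48.2, 57.4, 49.0 and 42.9 RPKM in the mutants against 14.1, 21.5, 16.4 and 18.3 in the controls (log2 fold change 1.47, SE 0.13, adjusted p = 0.000164), but Bex3, of similar level in the mutants to Bex1, did not pass (-0.19, adjusted p = 0.199).

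Genes of basic cell functions were examined in 5 lists. The share that rose was 23.5% for the proteasome, 9.09% for mitochondrial ribosomal proteins and 8.75% for oxidative phosphorylation. It was 0% for cytosolic ribosomal proteins and the mitochondrial genome, and 14.7% over all genes tested. At most 3.75% of a list fell, against 11.9% of all genes tested. Of 34 proteasome genes 8 rose (5 without mutant replicate 2 or 4 or any one control) and 1 fell (median 0.11). Of 80 cytosolic ribosomal protein genes none rose and 3 fell (median 0.01). None or 1 fell when any sample other than mutant replicate 1 was left out, 3 rose without mutant replicate 3, and 11 fell after quantile normalization. Of 80 nuclear genes of oxidative phosphorylation 7 rose and none fell, 15 without mutant replicate 3. The muscle or testis forms Cox6a2 and Cox6b2 were among those that rose, Cox6b2 with 10.0, 8.73, 10.3 and 9.11 RPKM in the mutants against 0.57, 0.86, 1.66 and 1.32 in the controls (log2 fold change 2.70, SE 0.21, adjusted p = 9.49e-05), whereas Atp5b, of the general ATP synthase, did not pass (0.09, adjusted p = 0.365). None of the 11 genes of the mitochondrial genome passed limma's test, 1 of them at an unadjusted p under 0.05, while 2 rose without control replicate 3. Of 77 mitochondrial ribosomal protein genes 7 rose (4 without control replicate 1) and 1 fell, and Mrpl16 stood out with 37.0, 36.6, 34.6 and 41.0 RPKM in the mutants against 23.1, 17.9, 17.2 and 17.3 in the controls (log2 fold change 0.97, SE 0.10, adjusted p = 0.000364).

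Among the largest falls, Msln (mesothelin), a surface protein of mesothelial cells, had 11.5, 2.04, 1.75 and 1.26 RPKM in the mutants against 27.8, 28.6, 28.1 and 31.6 in the controls (log2 fold change -3.15, SE 0.51, adjusted p = 0.00252). Gas1, a surface protein that binds hedgehog and GDNF, had 24.2, 8.89, 10.3 and 11.6 RPKM in the mutants against 42.6, 46.2, 36.7 and 44.5 in the controls (log2 fold change -1.70, SE 0.26, adjusted p = 0.00203). In both the highest mutant was replicate 1, still below every control. That sample was the highest mutant for 100 of the 184 genes that fell at least 2-fold. Cd109, a coreceptor that restrains TGF-beta signalling, had 6.99, 4.94, 4.97 and 3.44 RPKM in the mutants against 17.8, 21, 29.4 and 21.8 in the controls (log2 fold change -2.05, SE 0.21, adjusted p = 0.000267), and the receptor phosphatase gene Ptprk fell by a like amount (-1.99, SE 0.24). The epithelial keratin pair Krt8 (-1.34, SE 0.32) and Krt18 (-1.74, SE 0.35) fell as well. Soat1, which esterifies cholesterol for storage, had 6.68, 4.80, 5.30 and 4.35 RPKM in the mutants against 15.9, 16.7, 20.5 and 15.5 in the controls (log2 fold change -1.62, SE 0.14, adjusted p = 0.000142). H2afy2, which encodes the histone variant macroH2A2, had 1.65, 0.62, 0.36 and 0.68 RPKM in the mutants against 6.10, 3.85, 2.53 and 3.71 in the controls (log2 fold change -1.81, SE 0.32, adjusted p = 0.00376). Ptgis (prostacyclin synthase) and Tigit, an immune checkpoint receptor of lymphocytes, went to 0.47 or below in all mutants, Tigit with 0.47, 0, 0.32 and 0.31 RPKM in the mutants against 2.79, 2.96, 3.81 and 1.07 in the controls (log2 fold change -1.98, SE 0.34, adjusted p = 0.00334).

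Some changed genes lie side by side. In the order of RefSeq genes (GRCm38.p6), 171 of the 689 protein-coding genes that rose at least 2-fold (24.8%) had an adjacent tested gene that also rose that much, while 11.6% of all 11355 protein-coding genes tested had such a neighbour. For falls the numbers were 7 of 145 (4.8%) and 2.5%. Close copies and shared reads are among these neighbours, and no test was made of the difference. Dcn (chr10:97479500-97518163) and Lum (chr10:97565501-97572703) are such a pair, and so are Krt8 and Krt18 on chromosome 15. On chromosome 6, Mest, Cep41 (log2 fold change -1.65, SE 0.28, adjusted p = 0.00301), Cpa4 (-1.33, adjusted p = 0.0319) and Copg2 (-0.54, 0.00305) were all lower, of which Cpa4 and Copg2 were picked after their values were seen. Cpa4 did not pass without mutant replicate 4 or control replicate 2, 3 or 4, or with the replicate number as a block (adjusted p up to 0.0723).

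The same alleles were also recombined in culture, where myoblasts grown from satellite cells of resting muscle of Chd4fl/fl mice were taken 72 hours after infection with an adenovirus that carries Cre (AdCRE) or, as control, GFP (AdGFP), with 4 samples each. Levels were not compared between the 2 tables, which were normalized separately, but the change in sorted cells minus the change in culture was tested for 11941 genes with limma over all 16 samples. It passed for 492 genes (4.12%), 290 (2.43%) with the more positive change in sorted cells and 202 (1.69%) with the more negative. In culture the same-numbered samples deviate together (correlations of 0.711 to 0.856), and with the replicate number as a block 1688 genes passed. Without AdCRE replicate 3 the number was 260, without AdGFP replicate 3 it was 261, without AdCRE replicate 2 it was 283 and without AdGFP replicate 2 it was 323. Of the 11941 genes tested in both, 3251 passed in the sorted cells and 4517 in the cultures with the block. The 1670 that passed in both in the same direction were 51.4% of the former and 37.0% of the latter. A further 47 rose in sorted cells and fell in culture, and 55 did the reverse. Without the block 78 genes passed in the cultures, and 60 passed in both in the same direction (1.85% of the 3251). No test was made of the sharing.

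Tcfl5 was raised in both settings, and its log2 fold change was larger in the sorted cells. In culture it had 1.08, 1.30, 1.72 and 0.664 RPKM after AdCRE against 0.0122, 0.107, 0.0372 and 0.0163 after AdGFP, a log2 fold change of 1.6, and the difference between settings was 3.61, adjusted p = 2.2e-05. Icam1 rose in the sorted cells as given above and in culture had 0.598, 1.05, 0.789 and 1.24 RPKM after AdCRE against 0.167, 0.116, 0.108 and 0.223 after AdGFP (difference 2.88, adjusted p = 0.00056). In culture Tcfl5 and Icam1 lay near or below the constant added before logs were taken, which understates the change of low genes. The sizes of their differences between settings therefore depend on that constant, and by how much was not tested. Gas6, a secreted ligand of Axl receptors, had 28.9, 39.1, 29.2 and 26.1 RPKM in the mutants against 3.53, 4.39, 2.70 and 3.34 in the controls in sorted cells, whereas in culture it was abundant and level, with 205, 337, 218 and 327 RPKM after AdCRE against 207, 340.2, 273 and 321 after AdGFP (difference 3.05, adjusted p = 4.23e-05). Mbp and Ltbp2 also had the more positive change in sorted cells (differences 2.99, adjusted p = 0.000218 and 3.15, adjusted p = 0.000104).

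Among the genes with a more negative change in sorted cells, Cdh2 fell there and had 53.3, 65.6, 57.6 and 63.9 RPKM after AdCRE against 57.0, 63.4, 59.8 and 63.6 after AdGFP in culture (difference -2.01, adjusted p = 0.00124). Krt18 fell in sorted cells and had 31.0, 10.7, 7.31 and 11 RPKM after AdCRE against 15.9, 2.78, 1.91 and 7.13 after AdGFP in culture (difference -2.99, adjusted p = 0.0453). Peg10 had 14.6, 13.4, 18.6 and 9.55 RPKM in the mutants against 25.6, 15.6, 21 and 21.4 in the controls and 135, 99.8, 74.9 and 93.3 RPKM after AdCRE against 30.4, 25.8, 21.7 and 31.1 after AdGFP (difference -2.42, adjusted p = 0.00044), so only the cultured cells had every case sample above every control. Mest likewise had the more negative change in sorted cells (difference -2.26, adjusted p = 0.0193), and Ptgis too (difference -2.63, adjusted p = 0.0134). For each of these genes the difference also passed with the replicate block. Cre delivery, injury and culture differ between the settings. Time since recombination in the sorted cells, and whether the sorted controls had a Cre allele, are not stated. The parts of these in the differences cannot be told apart.

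**Figure D4:**
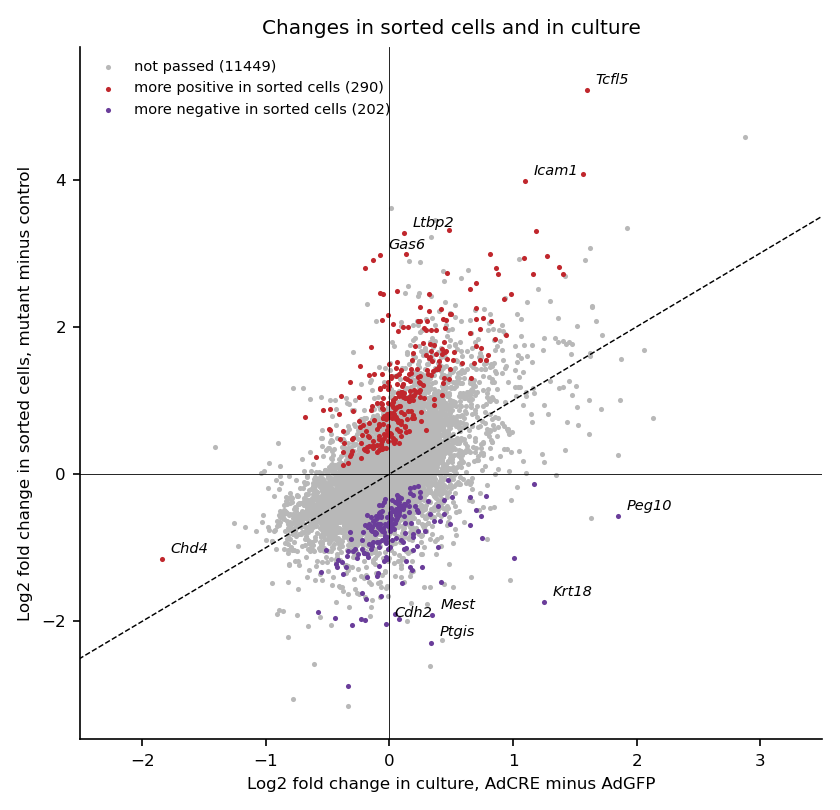
Log2 fold change in culture (AdCRE minus AdGFP, x axis) against log2 fold change in sorted cells (mutant minus control, y axis) for 11941 genes tested in both. Red and purple points are the 290 and 202 genes with a more positive or more negative change in sorted cells, and the dashed line marks equal changes. Tcfl5 lies above the line with both changes positive, Gas6 lies high at a change near 0 in culture, and Cdh2 lies low at a change near 0 in culture.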

How the data were processed

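RNA was sequenced from 8 samples of sorted satellite cells and 8 of cultured myoblasts. The authors deposited a table of RPKM values for each setting, the first rounded to 2 decimals, with Ensembl identifiers and symbols for 46078 genes (551 without a symbol). Per the submitters' processing notes the build was GRCm38 (mm10), and the tools listed for the series, with no role, are HISAT2 2.1.0, cutadapt 1.18, DESeq2 3.6, HOMER, FastQC 0.11.8, MACS2 2.1.2 and Picard 2.18.15. Which of these made the RPKM, how genes were counted and whether strand was used were not stated, so overlapping and near-identical genes are uncertain.

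Genes with at least 0.5 RPKM in at least 4 of the 8 samples were fitted as log2(RPKM + 0.5) with limma 3.58.1 (eBayes with trend, statmod 1.5.0, R 4.3.3), unpaired. Same-numbered sorted samples did not deviate together (correlations from -0.0967 to 0.0499), while same-numbered cultured samples did (0.711 to 0.856). P-values were adjusted by Benjamini-Hochberg, with a threshold of 0.05. The settings were compared by a contrast of the 4 group means. Gene lists are described by counts and medians, with no list test. The genes named are Chd4, the 25 largest rises and falls that do not overlap, up to 6 members of each list that passed and 3 abundant ones that did not, all NuRD, identity and marker genes, the 8 largest differences between settings in each direction, 8 that passed with the largest spread among mutants and 6 of highest level in each direction. Mymx, Soat1, Cpa4, Copg2, Acta1 and Chrm4 were added after their values were seen, and a few genes the rule names are not reported here. The genes, lists and tests were chosen with earlier results of these data known. RefSeq promoters matched 9346 of the 13344 genes by symbol (70.0%), 527 of the 748 higher (70.5%) and 117 of the 184 lower (63.6%), and a planned comparison of promoter features is void because under 80% of each set have an entry. Alternatives were another pseudocount, filter, scaling or variance model, the replicate number as a block, and each sample left out.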

Additional observations from a re-analysis of the deposited data

Results flagged for a closer look

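A sample was singled out where its distance to the nearest of the other 3 in its group, as a share of the group's range on the log2 scale, exceeded Dixon's critical value. Of 406 sets of 4 values examined, 36 were singled out, and chance gives about 1 in 20 sets. Mutant replicate 2 accounted for 13 of them and control replicate 1 for 9.

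Mutant replicate 2 was high for the muscle genes Casq1 (226.6 RPKM), Mymk (317.8), Mymx (42.7) and Stac3 (59.0), for Igf2 (179.2), Cdkn1a (868), Hspb1 (69.2), Hk1 (36.7) and Gsn (103.8), and for the globin Hba-a1 (4.03). It was low for Mcm6 (33.3), Rrm2 (42.1) and Met (28.1). Control replicate 1 was low for Actc1 (80.3), Myh3 (59.1), Myh8 (0.40), Tnni1 (4.69), Stac3 (9.68), Mb (0.13), Igf2 (15.1) and Col1a1 (3.94), and high for Mrpl16 (23.1).

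Mutant replicate 1 was high for Fgfr4 (32.6) and Msmo1 (15.2), each a gene that fell. Mutant replicate 3 was low for Akr1c13 (9.16) and Platr3 (16.9) and high for Myf5 (30.9). Among controls, replicate 2 was high for Gstt1 (4.35), replicate 3 was high for Mmp2 (13.2) and Gm364 (0.15) and low for Sdc3 (6.88) and Trp53 (38.0), and replicate 4 was high for Ctnnd1 (9.50), H2-D1 (53.1), Laptm5 (3.76) and Rapsn (19.8).

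The change in sorted cells minus the change in culture passed limma's test for 14 named genes. It was positive for Tcfl5 (3.61 log2 units), Ltbp2 (3.15), Gas6 (3.05), Adcyap1r1 (3.04), Mbp (2.99), Icam1 (2.88), Snhg9 (2.85) and Cox8b (2.83, with sorted controls listed at 0). It was negative for Cdh2 (-2.01), Tigit (-2.05), Mest (-2.26), Peg10 (-2.42), Ptgis (-2.63) and Krt18 (-2.99). For Tcfl5 and Icam1 the culture values lay near or below the constant added before logs were taken, so the sizes of their differences depend on it.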

How the results depend on the processing

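Over 17 other settings the Chd4 log2 fold change stayed between -1.22 and -1.09 and passed each time. The number of genes that rose was 1535 to 1969 and by at least 2-fold 566 to 879. The number that fell was 1034 to 2001, lowest without control replicate 2 and highest with TPM scaling, and the falls of at least 2-fold went from 184 to 111 with a pseudocount of 1. With single samples left out, 1034 to 1436 genes fell. TPM and quantile scaling shifted the median of all genes by -0.05 log2 units. Of the 158 named genes besides Chd4 that passed, 153 did so in every setting (not Pax7, Dpt, Piwil2, Cpa4 and Snord4a), and no named gene that passed changed sign.

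The replicate number as a block left 1694 genes higher and 1184 lower in the sorted cells, where numbers share no more than a name (0 of 4 pairs correlate best with their own number). The genes whose change differed between settings went from 492 to 1688 with the block, and lay between 260 and 532 with single samples left out (283 without AdCRE replicate 2, 260 without AdCRE replicate 3, 323 without AdGFP replicate 2 and 261 without AdGFP replicate 3).

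Read depth in the sorted samples is unknown, so values near 0 have no counting interval, and some genes near 0.5 RPKM reached the test through a single genotype. The comparison of promoter features was not run because fewer than 80% of genes had a promoter entry.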

Other observations

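A few large changes belong to none of the groups described. The arginine-modifying enzyme gene Padi3 had 7.25, 11.4, 6.32 and 17.1 RPKM in the mutants against 0.69, 1.15, 0.29 and 0.26 in the controls (log2 fold change 3.30, SE 0.35, adjusted p = 0.000321). The retinol carrier gene Rbp4 had 7.04, 5.73, 8.34 and 9.61 RPKM in the mutants against 0.97, 0.24, 0.39 and 0.23 in the controls (log2 fold change 3.13, SE 0.26, adjusted p = 0.000108). Chrm4, a muscarinic acetylcholine receptor gene picked after its values were seen, had 5.09, 4.34, 5.58 and 7.93 RPKM in the mutants against 0, 0.55, 0.69 and 0.10 in the controls (log2 fold change 2.96, SE 0.31, adjusted p = 0.000314). Adcyap1r1, the receptor of the neuropeptide PACAP, had 4.54, 4.37, 4.89 and 7.06 RPKM in the mutants against 0.19, 0.24, 0.45 and 0.16 in the controls (log2 fold change 2.90, SE 0.20, adjusted p = 5.46e-05). All 4 genes were at or below 1.15 in every control and at least 4.34 in every mutant. Ecscr, known from endothelium, had 6.33, 15.1, 4.87 and 14.2 RPKM in the mutants against 0.56, 0.38, 0.40 and 0.52 in the controls (log2 fold change 3.31, SE 0.34, adjusted p = 0.000283), with mutants 2 and 4 above mutants 1 and 3. The muscle actin gene Acta1, picked after its values were seen, had 399, 852, 323 and 334 RPKM in the mutants against 74.2, 143, 131 and 182 in the controls (log2 fold change 1.79, SE 0.34, adjusted p = 0.00559), again with mutant replicate 2 highest and control replicate 1 lowest.

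Among falls, Cdca7l, a chromatin-associated protein gene, had 2.02, 0.87, 1.14 and 0.91 RPKM in the mutants against 7.32, 5.24, 5.42 and 4.55 in the controls (log2 fold change -1.85, SE 0.23, adjusted p = 0.000686). Mboat1, a membrane-bound acyltransferase gene, had 3.40, 2.1, 3.65 and 3.07 RPKM in the mutants against 13.4, 10.5, 13.1 and 12.1 in the controls (log2 fold change -1.86, SE 0.16, adjusted p = 0.000133). Sox11 fell (13.7, 12.9, 10.8 and 8.02 RPKM in the mutants against 24.7, 24.2, 21.8 and 23.4 in the controls, log2 fold change -1.04, SE 0.15, adjusted p = 0.00149). The related Sox8 rose (10.4, 11.5, 14.3 and 13.7 RPKM in the mutants against 6.78, 5.23, 5.29 and 4.42 in the controls, log2 fold change 1.13, SE 0.15, adjusted p = 0.000893). Another member, Sox4, did not pass (-0.01, adjusted p = 0.976). Of 26 kinesin genes 6 fell (23.1%) and 2 rose (7.69%), against 11.9% and 14.7% of all genes tested. Kif21a, a neuronal transport kinesin, had 6.82, 6.41, 7.44 and 4.65 RPKM in the mutants against 14.4, 16.5, 18.2 and 14.2 in the controls (log2 fold change -1.27, SE 0.15, adjusted p = 0.000515). Of 12 tubulin genes 6 rose and 1 fell, with Tuba4a at 55.3, 67.9, 58.4 and 65.1 RPKM in the mutants against 30.5, 32.6, 24.1 and 29.7 in the controls (log2 fold change 1.07, SE 0.11, adjusted p = 0.000255). The kinesin genes that fell numbered 2 without control replicate 2 and 3 without mutant replicate 2 or 3 or control replicate 1, and 1 rose without mutant replicate 1, 2 or 3 or control replicate 1 or 4. The noncoding RNA gene Snhg9 had 13.9, 3.25, 5.91 and 8.11 RPKM in the mutants against 0.86, 1.73, 0 and 0 in the controls (log2 fold change 2.99, SE 0.56, adjusted p = 0.00482), with mutant replicate 1 highest and controls 3 and 4 listed at 0.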
